A study of Rattus norvegicus with 38 samples.

Results

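Rejecting heart allografts were compared with native hearts of the same strain, so that the difference holds the whole change from a healthy DA rat heart to a DA heart rejected by a BN host. DA and BN are inbred rat strains with different major histocompatibility complexes. Grafts were hearts transplanted into the abdomen next to the recipient's own heart, and all tissue was taken on post-transplant day 6. The allograft group was made up of DA hearts in BN recipients (5 hearts, numbered 3 to 7 after the recipient). The control group was made up of native DA hearts (4 hearts, numbered 9, 11, 12 and 13), taken from DA rats that carried a DA isograft, so these controls had also undergone the operation and housed another heart. Members were chosen by the sample labels alone, and make up 9 of the 18 heart samples and of the 38 samples of the series. Isografts (4 DA hearts from the recipients of the native DA hearts) and native BN hearts (5 hearts from the allograft recipients) entered the same model, and their values are given where they bear on a result. Native BN hearts came from rats that were rejecting a graft and native DA hearts from rats that were not. In differences between native BN and native DA hearts, strain and rejection in the host cannot be told apart. Each sample is 1 heart measured once. Allografts differ from native DA hearts in transplantation, in rejection and in the strain of the host and of the cells that enter the graft, and the parts of these in a difference cannot be told apart in this comparison. The groups compared share no recipient.

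In acute cellular rejection, T cells of the recipient recognise donor histocompatibility molecules, enter the graft with monocytes and macrophages, and kill or injure donor cells. Interferon gamma from activated lymphocytes raises histocompatibility molecules, the immunoproteasome and chemokines that attract more lymphocytes. The healthy adult heart draws most of its energy from fatty acid oxidation in densely packed mitochondria, and its muscle cells carry adult forms of contractile and glycolytic proteins that change under stress.

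Expression was measured on 1 Affymetrix RAE230A oligonucleotide array per heart, as 1 signal per probeset (a set of short probes for 1 transcript). Each signal was divided by the median signal of its array, so that a level of 1 is the array median, and differences are given on the log2 scale with their standard error (SE) from a linear model in limma. A gene is represented by its brightest probeset. For genes called by it, 345 other probesets were measured, of which 128 were called the same way and 51 had the opposite sign, so a change may hold for the transcripts that 1 probeset detects. Among the genes named by rule, 22 had 28 other probesets, of which 17 passed in the same direction, 10 did not pass and 1, of Atp2a2, passed in the opposite direction. Levels of different genes come from different probes and are not set against each other. Tests used the Benjamini-Hochberg adjusted p over all 15866 probesets, and a probeset was called where this p did not exceed 0.10, the groups differed 3-fold or more, and 50% or more of the hearts of 1 group reached the array median. Genes are said to have risen or fallen where the adjusted p was at most 0.10. The median signal was 40.5 to 44.7 in native DA hearts and 41.6 to 50.7 in allografts. As whole tissue was measured, fewer cells of a type and less RNA per cell cannot be told apart.

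Promoter sequences of 4 genes that rose are shown first, because interferon-induced, peptide loading and cell cycle genes are known targets of factors that bind short motifs near the start. The sequences are the 250 bases before the annotated gene start in RefSeq (rat build GRCr8), printed 5′ to 3′ on the strand of the gene. Capitals mark the letters of the motif. For Gbp2, Tap1 and Tap2 this is the interferon-stimulated response element in the form GAAA, any 2 bases and GAAA, and for Mcm6 it is the E2F motif in the form TTNGCGC, both searched on both strands. Gbp2 encodes an interferon-induced guanylate-binding protein, Tap1 and Tap2 the transporter that brings peptides to class I molecules, and Mcm6 a subunit of the replicative helicase. The windows are chr2:234005477-234005726 on the plus strand for Gbp2, chr20:4668544-4668793 on the minus strand for Tap1, chr20:4652297-4652546 on the minus strand for Tap2, and chr13:42404353-42404602 on the minus strand for Mcm6.
Gbp2: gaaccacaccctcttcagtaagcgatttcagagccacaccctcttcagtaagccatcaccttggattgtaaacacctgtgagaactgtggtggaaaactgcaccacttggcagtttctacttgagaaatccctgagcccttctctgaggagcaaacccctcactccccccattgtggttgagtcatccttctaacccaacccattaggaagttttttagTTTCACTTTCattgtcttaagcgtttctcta
Tap1: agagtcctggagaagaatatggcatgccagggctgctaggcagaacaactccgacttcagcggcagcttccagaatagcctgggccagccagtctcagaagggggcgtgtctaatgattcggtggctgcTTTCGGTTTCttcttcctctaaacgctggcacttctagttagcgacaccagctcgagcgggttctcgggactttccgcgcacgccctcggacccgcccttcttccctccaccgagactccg
Tap2: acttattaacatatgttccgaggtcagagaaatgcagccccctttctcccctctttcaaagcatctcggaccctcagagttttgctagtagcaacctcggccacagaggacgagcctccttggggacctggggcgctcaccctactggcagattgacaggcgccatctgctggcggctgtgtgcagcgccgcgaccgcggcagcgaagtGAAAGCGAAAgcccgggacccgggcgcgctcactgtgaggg
Mcm6: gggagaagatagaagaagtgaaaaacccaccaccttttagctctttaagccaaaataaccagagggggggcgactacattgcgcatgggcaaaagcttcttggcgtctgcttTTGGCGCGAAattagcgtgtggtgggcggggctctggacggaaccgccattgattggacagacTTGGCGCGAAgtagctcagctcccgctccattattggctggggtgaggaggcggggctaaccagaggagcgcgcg
The match nearest to the start lies 31 bases before it in Gbp2, 121 bases in Tap1 and 41 bases in Tap2. In Mcm6 there were 4 matches, which form 2 overlapping pairs of a match on each strand. The first motif was found in 3.29% of all 27457 promoters of the build and in 2.54% of the 8630 promoters of genes on the array. It was present in 12 of the 22 interferon-induced genes with a promoter sequence (54.5%), in 5 of the 14 of these that rose (35.7%), and in 6 of the 13 class I and peptide loading genes (46.2%). Irf7, Oas1a and Ifi27 hold it as well, with log2 differences of 0.05 (adjusted p = 0.88), -0.19 (adjusted p = 0.497) and -0.26 (adjusted p = 0.271). The E2F motif was found in 5.16% of all promoters, in 8.69% of those of genes on the array, and in 9 of the 34 cell cycle genes with a sequence (26.5%). Presence of these letters is a description of the window and does not show that a factor binds there.

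Allografts and native DA hearts differed at 1944 of the 15866 probesets (12.3%). Of these, 955 were higher (6.02%) and 989 were lower (6.23%) in the allografts. The change was 8-fold or more at 253 of the probesets that were higher and at 214 of those that were lower. In 936 of the probesets called higher and 975 of those called lower, every allograft lay outside the range of the native DA hearts. This follows largely from the call, which rests on the same hearts. Over all probesets, called or not, 17.2% were higher and 19.5% lower without overlap. By gene, 2626 of 10411 genes rose (25.2%) and 3030 fell (29.1%). These shares are the background for the counts by gene list given below. The median difference over all probesets was -0.12 on the log2 scale after division by the array median and -0.01 with the signals as deposited, so small differences near 0 depend on the scaling. For comparison, in the same model isografts had 131 probesets higher (0.826%) and 13 lower (0.0819%) than native DA hearts. The transplanted and native hearts of the isograft recipients share animals, and both comparisons share the native DA hearts.

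**Figure D1:**
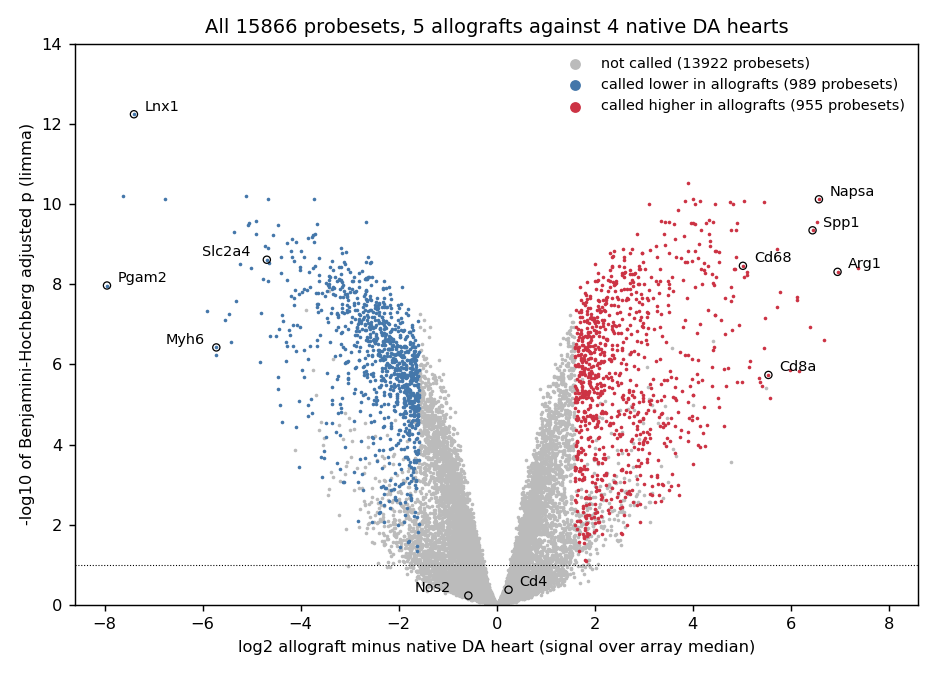
Each point is 1 of 15866 probesets, with the log2 difference between 5 allografts and 4 native DA hearts on the x axis and the negative log10 of the adjusted p from limma on the y axis. The dotted line marks an adjusted p of 0.10. The 955 probesets called higher (red) and the 989 called lower (blue) spread to similar distances on both sides, with Arg1, Napsa, Spp1, Cd68 and Cd8a among the rises, Pgam2, Lnx1, Myh6 and Slc2a4 among the falls, and Cd4 and Nos2 near 0.

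The largest rise among genes with a symbol was that of Arg1, which encodes arginase 1, an enzyme of alternatively activated macrophages. Its signal was 50.8, 55.3, 33.9, 44.2 and 55.0 array medians in allografts 3 to 7 and 0.764, 0.426, 0.315 and 0.205 in the 4 native DA hearts. No allograft came near the controls, allograft 5 being the lowest, and the difference was 6.95 (SE 0.46), or 124-fold (adjusted p = 4.88e-09). In the isografts, Arg1 stood at 0.46 to 0.587, within the range of the native DA hearts. Fcgr2b, the inhibitory receptor for immunoglobulin G, had signals of 16.8, 22.9, 11.9, 13.1 and 19.8 in allografts against 0.213, 0.186, 0.0599 and 0.285 in native DA hearts, a 102-fold rise (adjusted p = 2.39e-07). Spp1, osteopontin, a secreted matrix and cytokine-like protein of activated macrophages, reached 117, 118, 64.2, 106 and 111 against 1.35, 1.17, 0.96 and 1.19, an 86.8-fold rise (adjusted p = 4.48e-10). Allograft 5 again had the lowest Spp1 signal, still far above the controls. Gpnmb, a lysosomal glycoprotein of macrophages, was at 59.8 to 85.4 against 0.936 to 1.84 (52.2-fold, adjusted p = 1.35e-09).

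Napsa, Lilrb4, Lcp2 and Il6 completed the 8 largest rises. Napsa, an aspartic protease, rose 94.8-fold from 0.0404 to 0.0675 in native DA hearts to 3.63 to 5.89 in allografts. Napsa was also 1.10 higher on the log2 scale in native BN hearts than in native DA hearts (adjusted p = 0.0608). Lilrb4, an inhibitory receptor of myeloid cells, rose 71.4-fold and Lcp2, an adaptor of T cell and Fc receptor signalling, 69.4-fold. Il6, the acute-phase cytokine interleukin 6, was at 1.58, 4.5, 8.19, 3.13 and 1.99 in allografts against 0.0472, 0.068, 0.047 and 0.0464 in native DA hearts (63.2-fold, adjusted p = 1.34e-06). Allograft 5, with the lowest Arg1 and Spp1, had the highest Il6. For each of these 4 genes the native DA hearts lay far below the array median, where signals are least certain. With 0.25 array medians added to every signal the rises were 16.9-fold for Napsa, 27.9-fold for Lilrb4, 13.6-fold for Lcp2, 11.7-fold for Il6, 38.9-fold for Fcgr2b and 73-fold for Arg1.

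The largest fall among genes with a symbol was that of Pgam2, the muscle form of phosphoglycerate mutase. Its signal was 47.5, 45.2, 41.2 and 81 in native DA hearts and 0.06, 0.372, 0.493, 0.0714 and 0.508 in allografts, a 247-fold fall (adjusted p = 1.07e-08). Isografts lay between, at 13.4 to 26.8, a log2 difference of -1.41 from native DA hearts that did not pass the test (adjusted p = 0.16). Lnx1, a ubiquitin ligase, fell from 1.98 to 2.19 to no more than 0.0152, with the smallest adjusted p of the genes named (5.68e-13). Acsl6, a long-chain acyl-CoA synthetase, fell 60.3-fold. Myh6, the fast alpha myosin heavy chain of the adult rat ventricle, was at 118, 106, 91.2 and 126 in native DA hearts and at 0.539, 1.66, 4.05, 1.12 and 9.54 in allografts, a 52.8-fold fall (adjusted p = 3.76e-07). Among the allografts Myh6 thus differed widely, with the highest signal in allograft 7 and the lowest in allograft 3, while the controls stood close together. Dhrs7c, a dehydrogenase of the sarcoplasmic reticulum, fell 46.8-fold and Cmbl, a hydrolase, 40.7-fold, with 0.347 to 0.823 in allografts against 17.6 to 21 in native DA hearts. Prcd, a membrane protein best known from photoreceptors, fell 44.2-fold. Card9, an adaptor of innate immune receptors, fell 43-fold (adjusted p = 2.81e-07), but native BN hearts were also 5.86 lower on the log2 scale than native DA hearts (adjusted p = 1.06e-05). With 0.25 array medians added, the falls were 102-fold for Pgam2, 24.3-fold for Dhrs7c, 24.6-fold for Card9, 27.1-fold for Cmbl, 10.4-fold for Prcd, 9.06-fold for Acsl6 and 8.82-fold for Lnx1, while Myh6 fell 44.9-fold.

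**Figure D2:**
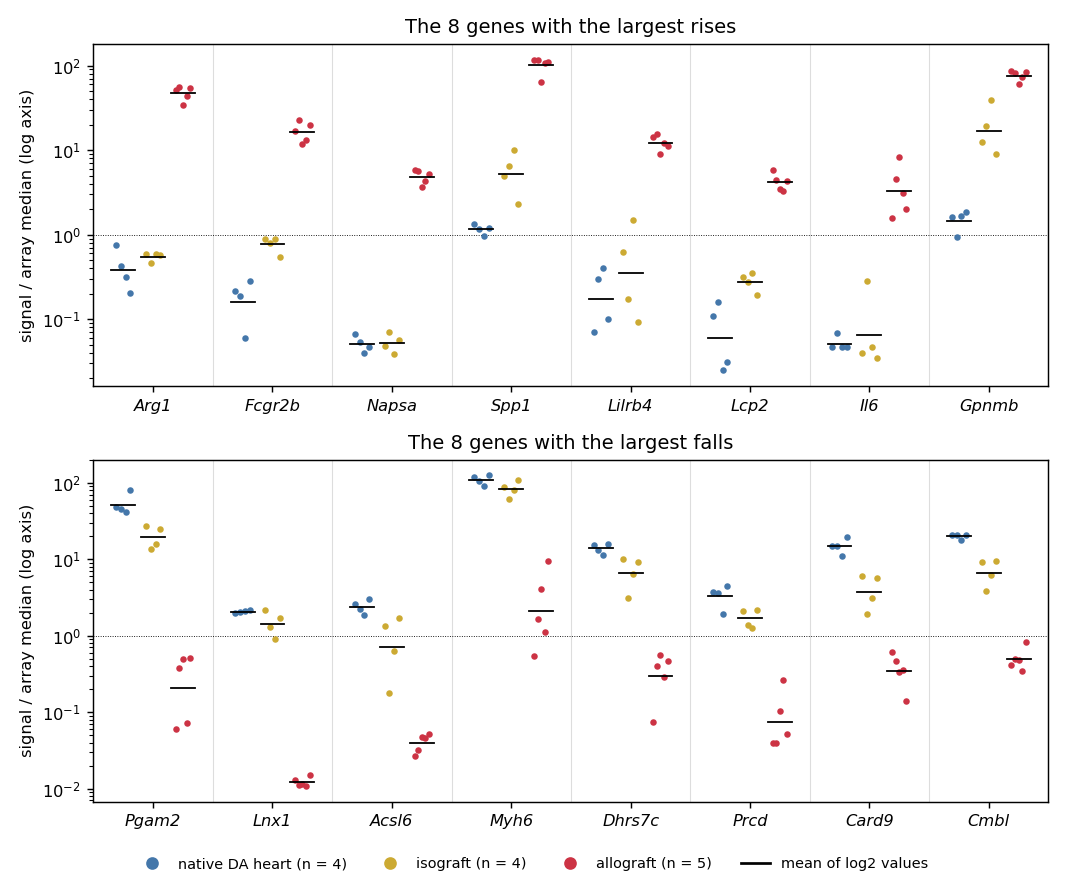
Signal over array median (log axis) in each native DA heart (blue), isograft (yellow) and allograft (red) for the 8 genes with the largest rises and the 8 with the largest falls, where the black bars are means of log2 values. The genes were drawn from those without overlap between allografts and native DA hearts, so the separation of these groups follows from the choice. For Fcgr2b, Gpnmb, Spp1, Lcp2, Pgam2 and Card9, for example, every isograft lies between the groups.

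Of 22 monocyte and macrophage genes measured, 21 rose, none fell and 1 did not pass, with a median difference of 3.99 against -0.09 over all genes. Cd68, a lysosomal glycoprotein of macrophages, was at 46.8, 35.6, 29.6, 39.8 and 35.7 in allografts and at 1.2, 1.23, 0.923 and 1.26 in native DA hearts (32.5-fold, adjusted p = 3.45e-09). Isografts had 2.91 to 7.88, above every native DA heart and below every allograft. Csf1r, the receptor for the macrophage growth factor, rose by 3.25 (adjusted p = 1.11e-09), and Cd14, the co-receptor for endotoxin, by 4.33 (adjusted p = 5.6e-10). Itgam, the alpha chain of the integrin Mac-1, rose 21.9-fold, from 0.145 to 0.236 to 3.16 to 4.51 (adjusted p = 9.7e-11). Other members with rises of over 4 on the log2 scale were Ctss, a cathepsin that trims the invariant chain of class II molecules (4.01), Tyrobp, an adaptor of myeloid receptors (4.27), Fcgr3a, an activating Fc receptor (5.05), Aif1, an actin-binding protein of macrophages (4.82), and Cd53, a leukocyte tetraspanin (4.35). Ncf1, a subunit of the phagocyte oxidase, was the member that did not pass, at -0.33 (adjusted p = 0.66).

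T cell genes divided by molecule. Of 19 measured, 11 rose, none fell and 8 did not pass, with a median of 1.54. Cd8a, the alpha chain of the co-receptor of cytotoxic T cells, had signals of 17.1, 10.9, 5.35, 11.4 and 6.08 in allografts and 0.369, 0.0917, 0.337 and 0.139 in native DA hearts, a 46.6-fold rise (adjusted p = 1.83e-06). Cd3d, a chain of the T cell receptor complex, rose 25.4-fold, from 0.0774 to 0.238 to 1.77 to 4.13 (adjusted p = 3.39e-06), and its partners Cd3e and Cd3g rose by 2.20 and 2.79, the latter by 2.14 without native DA heart 13. Cd4, the co-receptor of helper T cells that rat macrophages also carry, was at 1.88, 1.62, 1.76, 1.81 and 1.18 in allografts against 1.49, 1.14, 1.78 and 1.19 in native DA hearts. These groups overlap, and the difference of 0.24 did not pass (adjusted p = 0.421). The costimulatory and regulatory receptors Cd28, Ctla4 and Icos gave -0.15, -0.22 and -0.08 and did not pass, all at signals below the array median. Il2rg, the common gamma chain of cytokine receptors, rose by 2.60, Ptprc, the pan-leukocyte phosphatase CD45, by 3.64 and the kinase Lck by 1.87. Il7r, the interleukin 7 receptor, rose by 5.50 from signals of at most 0.0238, and by 1.80 with 0.25 array medians added.

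Of 15 genes of cytotoxic and natural killer cells, 9 rose, none fell and 6 did not pass (median 0.64). Gzmb, granzyme B of cytotoxic granules, was at 6.58, 6.59, 1.73, 3.03 and 3.88 in allografts and at 0.457, 0.597, 0.389 and 0.109 in native DA hearts (11.8-fold, adjusted p = 0.00053). Prf1, perforin, rose 5.75-fold (adjusted p = 0.0025), from 0.0659, 0.464, 0.341 and 0.676 to 2.02, 1.96, 1.14, 1.44 and 1.98, and by 1.81 in place of 2.52 on the log2 scale without native DA heart 9. Nkg7, a membrane protein of cytotoxic granules, rose 5.53-fold. The receptors Klrd1, Klrc1, Klrg1 and Ncr1 did not pass, with differences of 0.30, -0.43, -0.50 and -0.62, and neither did Ifng, interferon gamma itself, at 0.11 (adjusted p = 0.913). Mean signals of these 5 genes lay below the array median in both groups. Klrk1 and Klrb1b, receptors of the same list, rose by 1.14 (adjusted p = 0.0102) and 1.6 (adjusted p = 0.00408), without overlap. Klrb1b also lay below the array median, at mean levels of 0.463 in allografts and 0.152 in native DA hearts. Klrb1a did not pass, at 0.13 (adjusted p = 0.848). Of the neutrophil genes 4 of 7 rose and none fell (median 1.68). The receptors Cxcr2 and Cxcr1 and the collagenase Mmp8 did not pass, at 0.67, -0.83 and 0.35 (adjusted p = 0.435, 0.193 and 0.303). Mmp9 rose 3.19-fold (adjusted p = 0.0278). S100a9, a calcium-binding protein of neutrophils and monocytes, was at 4.0, 15.4, 22.7, 16 and 14 in allografts against 1.7 to 2.99 in native DA hearts (5.46-fold, adjusted p = 0.00203), and its partner S100a8 rose 4.01-fold, with allograft 3, at 0.829, inside the range of the controls. Lcn2, lipocalin 2, rose 3.5-fold, and was 2.95 higher in native BN hearts than in native DA hearts (adjusted p = 0.00471). For B cells and plasma cells 3 genes were measured. Cd79b, of the B cell receptor, did not pass (1.16, adjusted p = 0.163), and Prdm1 and Xbp1, which plasma cells need but other cells also express, rose by 0.86 and 0.42. Without native DA heart 12 Xbp1 gave 0.34 and did not pass (adjusted p = 0.121).

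All 9 genes of class II histocompatibility and antigen processing rose (median 3.52), and none overlapped between the groups. Of all probesets, 17.2% were higher without overlap. RT1-DMa, which helps load peptides, rose 29.8-fold, from 0.548 to 0.91 in native DA hearts to 28.9, 22.1, 17.2, 23.0 and 15.2 in allografts (adjusted p = 3.03e-10). RT1-Bb rose 27.2-fold and RT1-Db1 21.8-fold, both beta chains of class II molecules. The isografts, at 6.68 to 10.2 for RT1-Bb, were also above the native DA hearts (1.95, adjusted p = 0.000131). Another probeset for RT1-Bb, with mean levels of 0.241 and 0.222, gave 0.12 and did not pass (adjusted p = 0.909). Ciita, the master regulator of class II genes, rose by 1.26 (adjusted p = 2.65e-05), from a mean level of 1.21 to 2.9. Of 15 class I and peptide loading genes measured 11 rose, none fell and 4 did not pass (median 1.22). Tap1 was at 5.0, 4.3, 2.61, 2.84 and 3.93 in allografts against 0.336, 0.208, 0.271 and 0.16 in native DA hearts (15.4-fold, adjusted p = 3.51e-06), although another, dimmer probeset gave 0.93 (adjusted p = 0.167). Tap2 rose 4.47-fold, and RT1-N3, a non-classical class I gene, 9.36-fold, or by 2.52 in place of 3.23 on the log2 scale without native DA heart 11. Members of the RT1 family share much of their sequence, so their probesets may not separate them. Tapbp and Canx, chaperones of class I assembly, did not pass, at 0.08 and -0.18.

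Some catalytic subunits of the proteasome rose and others did not. Psmb8, Psmb9 and Psmb10 form the immunoproteasome, and take the place of Psmb5, Psmb6 and Psmb7. Psmb8 was at 38.3, 29.6, 15.8, 21.7 and 18.4 in allografts against 3.19, 2.42, 2.21 and 2.68 in native DA hearts, a 9.04-fold rise (adjusted p = 2.2e-08). Psmb9 rose 4.04-fold (adjusted p = 2.09e-06) and Psmb10 3.78-fold (adjusted p = 1.96e-05). Of the constitutive subunits, Psmb5 fell by 0.86 (adjusted p = 0.0025), from 27.7, 30.8, 23.4 and 40.1 to 20, 20, 12.4, 16.2 and 14.9. Psmb7 fell by 0.49 (adjusted p = 0.0571), with overlapping groups, and did not pass after quantile normalization (-0.10, adjusted p = 0.543) or without allograft 5 (adjusted p = 0.126) or native DA hearts 9 or 13 (adjusted p = 0.161 and 0.123). Allograft 3 had the highest and allograft 5 the lowest signal for all 3 immunoproteasome subunits. Psme2, of the interferon-induced activator, rose by 1.42 and its partner Psme1 fell by 0.66, or by 0.25 after quantile normalization, which did not pass (adjusted p = 0.152). Of the 28 proteasome genes in all 5 rose, 7 fell and 16 did not pass (median -0.10, and 0.09 after quantile normalization). The shares that rose and fell, 17.9% and 25%, lay below the 25.2% and 29.1% of all genes. After quantile normalization 8 proteasome genes rose and 3 fell.

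Interferon-induced genes divided as well. Of 27 measured, 16 rose, 2 fell and 9 did not pass (median 0.60). Gbp2 rose 11.4-fold, with 23.3, 17.8, 9.46, 15.7 and 17.8 in allografts against 1.92, 1.17, 1.29 and 1.37 in native DA hearts (adjusted p = 1e-08). The transcription factors Irf1 and Irf8 rose by 2.36 and 2.56, Ido1, which degrades tryptophan, by 1.78, and Gch1, needed for the cofactor of nitric oxide synthase, by 1.37. These genes are known to respond to interferon gamma, but which interferon acted was not tested. Among other members of the list, Mx1 rose by 0.60 (not passing without native DA hearts 9 or 12, adjusted p = 0.119 and 0.115) and Ifit3 by 1.18. Parp14, Irf9 and Ifitm2 rose by 1.04, 0.80 and 0.55 (adjusted p = 1.39e-05, 0.0088 and 0.00654). Mx2, Oas1a, Oas1b, Oasl, Irf7 and Usp18 did not pass, at -0.55, -0.19, -0.46, 0.47, 0.05 and 0.00. Bst2, Ifitm3 and Ifi27 did not pass either, at 0.51, 0.16 and -0.26. Ifit1 fell by 0.59 (adjusted p = 0.00763) and Rsad2, viperin, fell by 1.02 (adjusted p = 0.00334). The strain of the cells that enter the graft is part of all these differences.

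Of 24 chemokines, 14 rose, 3 fell and 7 did not pass (median 1.33). Cxcl9 and Cxcl10, the interferon-induced ligands of the T cell receptor Cxcr3, rose 5.94-fold and 6.5-fold, and Cxcr3 rose by 1.43. For Cxcl10 the signals were 14.2, 5.11, 3.27, 3.85 and 3.02 in allografts against 0.747, 0.847, 0.745 and 0.675 in native DA hearts, with allograft 3 well above the others. Cxcl13, which attracts B cells, rose 9.45-fold, and was again highest in allograft 3, at 18.4 against 5.54 to 7.18 in the other 4. Cxcl2, which attracts neutrophils, rose 14.9-fold (adjusted p = 4.97e-05), and was lowest in allograft 3, at 0.898. Related chemokines did not follow Cxcl2. Cxcl1 and Cxcl6 did not pass (adjusted p = 0.164 and 0.793), while Cxcl3 fell by 1.62 (adjusted p = 0.0458) and Ppbp by 1.14 (adjusted p = 0.00104). Cxcl3 did not pass without allografts 3 or 4 or native DA hearts 11 or 13, at adjusted p of 0.103 to 0.12. Ccl2, which attracts monocytes, rose by 2.96 and its receptor Ccr2 rose 3.72-fold. Ccl5 rose 1.98-fold (adjusted p = 0.0154), with overlapping groups, since native DA hearts already had 1.89 to 4.29. Cxcl12, the homeostatic ligand of Cxcr4, fell by 2.80, from a mean level of 8.44 to 1.21, while Cxcr4 rose 6.87-fold. Of 9 chemokine receptors 5 rose, 2 fell and 2 did not pass (median 1.30), and the falls were those of Ackr3, a scavenger of Cxcl12, by 1.17, and of Ccr4 by 0.66 (adjusted p = 0.0778). Ccr4 did not pass with the signals as deposited (-0.55, adjusted p = 0.2), after quantile normalization, with an intensity trend, or without allografts 3 or 4 or native DA hearts 9, 11 or 13, at adjusted p of 0.105 to 0.2.

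Cytokines and their receptors gave 18 rises, 5 falls and 12 members that did not pass, of 35 measured (median 0.92). Beside Il6 and Spp1 the rises took in Il1b by 2.95, its antagonist Il1rn by 3.99 (4.58 without allograft 7), Il18 by 3.75 and Tgfb1 by 3.32. Il4r, a receptor chain for interleukins 4 and 13, rose 24.8-fold, from 0.0995 to 0.376 to 3.38 to 5.21. Il4 fell by 1.97, at signals below the array median in both groups, and Tnf, Il2 and Csf2 did not pass. Of 20 complement and coagulation genes 14 rose, 2 fell and 4 did not pass (median 1.72). C1qc, of the first component of complement, was at 74.8, 55.2, 42.5, 48.9 and 40.7 in allografts against 4.6, 2.86, 2.61 and 4.13 (14.8-fold, adjusted p = 1.47e-09), and C1qa and C1qb rose by 3.61 and 3.60. F13a1, the clot-stabilising transglutaminase that macrophages also make, rose 16.6-fold (adjusted p = 9.77e-11), and by 2.78 on the log2 scale at another probeset with mean levels of 0.722 and 4.97 (adjusted p = 4.5e-06). Plaur, the urokinase receptor, rose 28.2-fold, whereas another probeset, with mean levels of 0.0341 and 0.0548, gave -0.68 (adjusted p = 0.457). The falls were those of C1s by 1.27 and of F3, tissue factor, by 1.35.

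Of 12 adhesion genes 9 rose, none fell and 3 did not pass (median 1.56). Icam1 and Vcam1, which leukocytes bind on activated endothelium, rose by 2.80 and 1.49, Selp by 2.13 and Cd44, a hyaluronan receptor of leukocytes, 8.53-fold. Sele, the endothelial selectin, rose 7.87-fold to at most 0.979 array medians, and was also 2.90 higher in native BN hearts (adjusted p = 0.00187). Of 21 endothelial genes 7 rose, 6 fell and 8 did not pass, with a median of 0.01. The shares that rose and fell, 33.3% and 28.6%, compare with 25.2% and 29.1% of all genes. Pecam1 was at 2.23, 3.39, 2.49, 2.0 and 2.61 in allografts against 2.54, 2.85, 2.37 and 2.54, and did not pass (adjusted p = 0.874). Kdr, the main receptor for vascular endothelial growth factor, fell by 0.33 (adjusted p = 0.0559), and did not pass with the signals as deposited (-0.22, adjusted p = 0.3), after quantile normalization, with only both groups in the fit, or without allografts 4 or 6 or native DA hearts 11 or 12. Plvap, of the diaphragm of fenestrated vessels, rose 6.91-fold. Rgs5, a gene of pericytes, fell 5.53-fold, from 4.54, 4.67, 2.78 and 3.73 to 0.612, 0.414, 1.54, 0.779 and 0.536, and Cd36, the fatty acid translocase of capillaries and muscle, fell 3.54-fold.

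Matrix genes differed widely among the allografts. Of 46 measured, 21 rose, 8 fell and 17 did not pass (median 0.57). Fn1, fibronectin, rose 19.8-fold, evenly, with 40.3, 43.7, 43.4, 43.0 and 44.1 in allografts against 1.8, 1.89, 3.65 and 1.77 in native DA hearts (adjusted p = 3.41e-09). Tnc, tenascin C, a matrix protein of injury, rose 35.2-fold, with 4.04, 3.19, 20.8, 5.68 and 1.57 against 0.118 to 0.159 (adjusted p = 1.18e-06). Col1a1, of type I collagen, rose 8.6-fold (adjusted p = 5.3e-05), with 40.1, 14.5, 61.3, 38.0 and 7.53 in allografts against 2.26, 2.14, 4.56 and 3.34. For Tnc and Col1a1 allograft 5 was highest and allograft 7 lowest. Col3a1, of type III collagen, rose 2.03-fold (adjusted p = 0.0547) with overlapping groups, and did not pass when any 1 of allografts 3, 5 and 6 or native DA hearts 9 and 11 was left out. The falls included Dcn, decorin, by 2.07 with overlapping groups, Dpt, dermatopontin, by 3.41, and Ogn, osteoglycin, by 4.19. The receptor Pdgfra fell by 1.97 (adjusted p = 0.0364), and did not pass with only both groups in the fit (adjusted p = 0.13). The small proteoglycans Bgn, Lum and Prelp did not pass, at 0.12, -1.06 and -0.01. Native BN hearts also had less Ogn than native DA hearts (-2.11, adjusted p = 0.000202). Of 22 matrix proteases and inhibitors 11 rose, 2 fell and 9 did not pass (median 0.89). Mmp12, the macrophage elastase, rose 29.1-fold, from 0.328 to 0.629 to 8.66 to 18.8 (adjusted p = 4.12e-09), and Timp1, an inhibitor of these proteases, 21.9-fold, from 1.19 to 2.52 to 41.5, 31.9, 73.8, 47.6 and 14.7.

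Most contractile genes measured were lower in the allografts. Of 29 sarcomere genes 1 rose, 24 fell and 4 did not pass (median -1.73). In the native DA hearts the cardiac troponins Tnnt2 and Tnni3 stood at 106 to 147 and 105 to 198 array medians, as the tissue label calls for. Tnni3, the adult cardiac troponin I, fell 11.1-fold to 14.2, 24.9, 9.37, 5.46 and 25.1 (adjusted p = 1.63e-06), and Tnnt2 fell by 1.54 (adjusted p = 0.000121). Ldb3, a protein of the Z disc, fell 17.5-fold and Myoz2, which anchors calcineurin there, 12.4-fold. Myh7, the slow beta myosin heavy chain that replaces alpha myosin in stressed rodent hearts, fell 1.78-fold (adjusted p = 0.0361), from 74.5, 60.7, 58.1 and 59.7 to 38.0, 68.3, 23.8, 18.4 and 48.9. The groups overlap for Myh7, and after quantile normalization the fall was 0.40 and did not pass (adjusted p = 0.212). Another Myh7 probeset did not pass either, at -0.43 (adjusted p = 0.497). Tnni1, the slow skeletal troponin I of the fetal heart, fell by 0.69 (adjusted p = 0.032), from 1.18, 0.681, 1.08 and 1.01 to 0.484, 0.632, 0.939, 0.35 and 0.767, and did not pass with the signals as deposited (-0.58, adjusted p = 0.111) or by its other probeset (0.36, adjusted p = 0.61). The sarcomere gene that rose was Acta1, skeletal alpha actin, a gene of the fetal heart, 4.82-fold from 6.73 to 8.95 to 54.0, 60.8, 24.3, 21.7 and 39.8 (adjusted p = 2.21e-06). Acta1 was also 2.45 higher in native BN hearts than in native DA hearts (adjusted p = 9.73e-05). Des, desmin, of the intermediate filaments, and Ankrd1, a stretch-responsive ankyrin repeat protein, did not pass, at -0.06 and -0.30.

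Calcium handling and ion channel genes were mostly lower. Of 37 measured 27 fell, 1 rose and 9 did not pass (median -1.40). Kcnip2, the subunit that forms the transient outward potassium current with Kcnd2 and Kcnd3, fell 39.7-fold, from 33.2, 33.3, 30.0 and 38.0 to 0.358, 0.852, 1.12, 0.522 and 2.4 (adjusted p = 2.66e-08), and Kcnd2 and Kcnd3 fell by 1.85 and 3.35. Of the other probesets of Kcnip2, the first fell by 4.44 and the other, at mean levels of 0.267 and 0.245, gave -0.12 and did not pass (adjusted p = 0.872). Hrc, a calcium-binding protein of the sarcoplasmic reticulum, fell 25.4-fold and Asph, whose locus encodes junctin, 21.2-fold. Ryr2, the calcium release channel, fell by 3.12, Pln, phospholamban, by 3.12 and Casq2, calsequestrin, by 2.73. Atp2a2, the calcium pump of the sarcoplasmic reticulum, fell 6.22-fold by its brightest probeset (adjusted p = 1e-06). Of its other 3 probesets, 1 rose by 0.73 (adjusted p = 0.000512) and the others, at -0.42 and -0.02, did not pass, so the probesets of Atp2a2 disagree. Gja1, the main gap junction protein of the ventricle, fell by 0.94. The gene that rose, Fkbp1b, did so by 0.83 (adjusted p = 0.0619) at mean levels of 0.0425 and 0.0239 array medians. With 0.25 array medians added Fkbp1b gave 0.09 and did not pass (adjusted p = 0.514), and it did not pass with an intensity trend or without allograft 4 or native DA hearts 9, 11 or 13.

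Of 21 cardiac transcription factors 19 fell, none rose and 2 did not pass (median -1.21). Klf15, a regulator of cardiac lipid use, fell 17.3-fold, from 7.87, 7.09, 7.34 and 7.72 to 0.304, 0.283, 0.744, 0.49 and 0.493 (adjusted p = 1.37e-08). Rxrg fell 7-fold and Hand2 3.62-fold, and the core factors Gata4, Nkx2-5 and Tbx5 fell by 1.14, 1.79 and 1.48. Esrra, a regulator of mitochondrial genes, fell by 1.47. Stress and fetal genes were mixed, with 8 rises, 3 falls and 6 that did not pass among 17 (median 0.94). Nppa, atrial natriuretic peptide, rose 5.52-fold, from 13.4, 8.34, 15.8 and 17.2 to 97.6, 102, 40.0, 52.4 and 98.1 (adjusted p = 1.97e-05). Nppb, the B-type peptide, did not pass, with 36, 75.9, 13.9, 24.7 and 50.1 in allografts against 46.7, 22.2, 28.6 and 53.0 (adjusted p = 0.93). Atf3, a transcription factor of acute stress, rose 11-fold.

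All 59 genes of the respiratory chain and ATP synthase fell (median -2.11, from -3.36 to -0.69), and in 57 of them no allograft overlapped the native DA hearts. Of all probesets, 19.5% were lower without overlap. Cox8b, a heart and muscle form of a cytochrome oxidase subunit, fell 10.3-fold, from 119, 96.8, 96.5 and 140 to 11.7, 17.9, 6.48, 4.56 and 24.0 (adjusted p = 3.57e-06). Cox7a1, also a muscle form, fell 9.06-fold and Ndufa5, of complex I, 8.52-fold. The smallest falls were those of Cox8a by 0.69 and Cox6a1 by 0.76, the forms of these subunits found in most tissues. Of 25 citric acid cycle genes 24 fell, none rose and 1 did not pass (median -2.11). Pdk2, which inhibits pyruvate dehydrogenase, fell 13.5-fold, Got1, of the malate-aspartate shuttle, 7.5-fold and Idh3g 5.97-fold. Of 37 genes of fatty acid uptake and oxidation 32 fell, none rose and 5 did not pass (median -2.60). Fabp3, the heart fatty acid binding protein, fell 16.3-fold, from 194, 160, 142 and 230 to 10.4, 14.5, 12.9, 4.97 and 16.1 (adjusted p = 1.72e-08), and Acsl1 13.5-fold. Cpt1b, the muscle form of the transferase that admits fatty acids to mitochondria, fell by 3.42, whereas Cpt1a, the liver form, gave 0.28 and did not pass (adjusted p = 0.21).

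Of 28 glycolysis genes 12 rose, 10 fell and 6 did not pass (median 0.14). Slc2a4, the insulin-responsive glucose transporter of muscle, fell 25.8-fold, from 21, 19.1, 17 and 19.7 to 0.711, 0.458, 0.989, 0.639 and 1.09 (adjusted p = 2.43e-09), while another probeset of it, at mean levels of 2.98 and 0.818, fell by 1.86 (adjusted p = 1.98e-06). Slc2a1, the transporter of most other cells, rose 4.58-fold, from 2.04, 2.02, 2.47 and 2.02 to 8.57, 15.4, 9.05, 6.32 and 11.8 (adjusted p = 3.03e-07). Beside the fall of Pgam2, its counterpart Pgam1 rose 2.41-fold, from 22.4, 23.5, 19.2 and 26.1 to 62.7, 68.5, 41.5, 52.6 and 51.8 (adjusted p = 8.81e-06). Eno3, muscle enolase, fell 27.3-fold, while Eno1, the general form, rose 2.51-fold (adjusted p = 9.15e-07) and Eno2 by 2.37. Eno1 was also 0.87 higher in native BN hearts (adjusted p = 0.00369). The hexokinases did not follow this split between forms. Hk2, the insulin-sensitive form of muscle, rose by 0.46 (adjusted p = 0.0441), from 0.992, 0.735, 0.923 and 0.73 to 0.902, 1.23, 1.33, 1.39 and 0.99 with overlapping groups, and did not pass without allograft 6 (adjusted p = 0.103) or native DA hearts 11 or 13 (adjusted p = 0.119 and 0.121). Hk1, the general form, did not pass, at -0.04 (adjusted p = 0.917), with 3.67 to 7.37 in allografts and 4.28 to 7.61 in native DA hearts. Among phosphofructokinases Pfkm, the muscle form, fell by 3.72 and Pfkl and Pfkp rose by 1.67 and 2.73. Ldhb, the lactate dehydrogenase subunit of heart, fell 3.68-fold, and Ldha, of fast muscle and most tissues, did not pass at -0.09 (adjusted p = 0.744), with 0.33 after quantile normalization (adjusted p = 0.0764). Slc16a3, a lactate exporter, rose 28.4-fold, from 0.242, 0.564, 0.561 and 0.606 to 11.4, 16.2, 14.9, 10.8 and 13.5, and Slc16a1 fell by 1.68. Of 13 genes of energy buffering 2 rose, 7 fell and 4 did not pass (median -0.65), with an 18-fold fall of Ckm, muscle creatine kinase, a 12.6-fold fall of the mitochondrial Ckmt2, and a rise of Ckb, the brain form, by 1.43. Prkaa2, a catalytic subunit of the energy sensor AMPK, fell by 4.04, and by 3.34 without allograft 5.

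**Figure D3:**
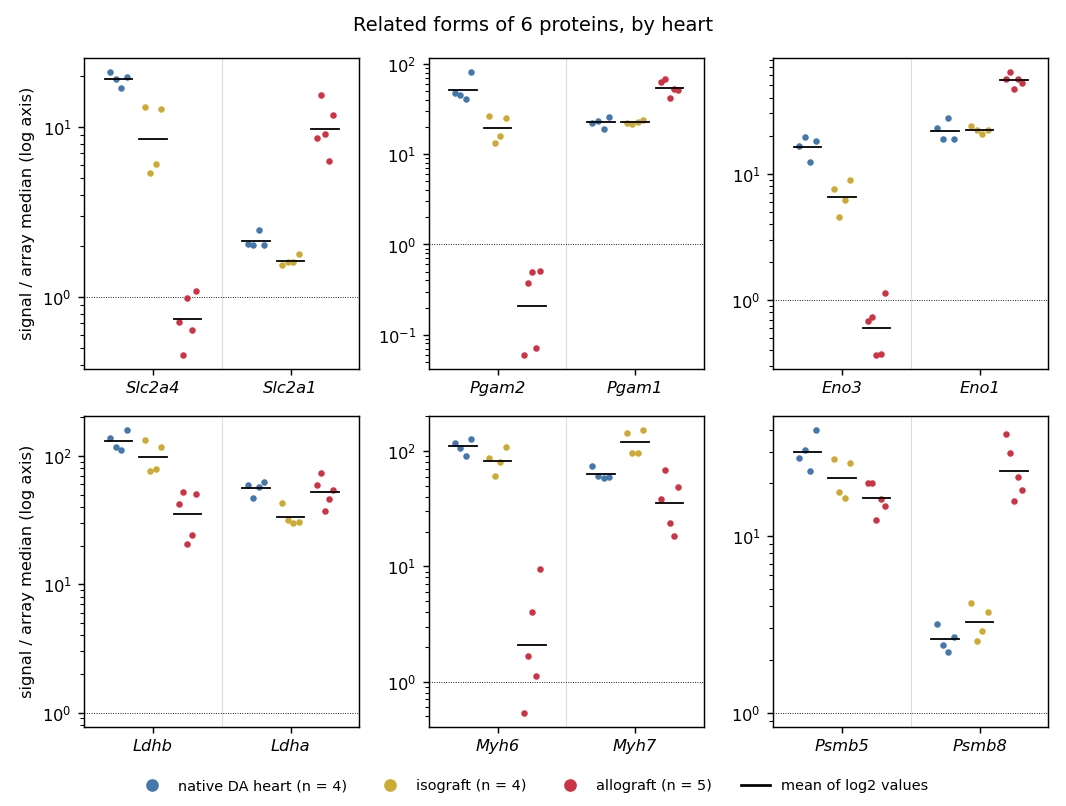
Signal over array median (log axis) in each native DA heart (blue), isograft (yellow) and allograft (red) for muscle or constitutive forms (left in each panel) and the other form of the same protein (right), with means of log2 values as bars. Slc2a4, Pgam2 and Eno3 fall below every native DA heart while Slc2a1, Pgam1, Eno1 and Psmb8 rise above all of them. Levels of different genes come from different probes and are not comparable in height.

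Of 39 cell cycle genes 32 rose, 1 fell and 6 did not pass (median 1.62). Mki67, a nuclear protein of dividing cells, rose 42.4-fold, from 0.0637, 0.0669, 0.0718 and 0.0933 to 3.1, 2.81, 3.34, 2.82 and 3.49 (adjusted p = 3.43e-06). Cks2, a partner of cyclin-dependent kinases, rose 41-fold and Mcm6 32.3-fold, from 0.0344 to 0.169 to 1.85 to 4.07 (adjusted p = 2.81e-06). The native DA hearts lay near the lower end of the array for these 3 genes, and with 0.25 array medians added the rises were 3.37, 3.40 and 3.14 on the log2 scale. The other members of the same helicase rose as well, Mcm2 by 2.15, Mcm3 by 1.40, Mcm4 by 1.62, Mcm5 by 0.67 and Mcm7 by 1.40. The fall was that of Ccnd3, a D-type cyclin, by 0.58, and the cell cycle inhibitors Cdkn1a and Cdkn1b did not pass, at 0.21 and 0.32.

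Of 31 cell death genes 19 rose, 4 fell and 8 did not pass (median 0.63). The largest rise was that of Bcl2a1, an inhibitor of apoptosis in leukocytes, 18.6-fold, with 10.3, 10.4, 4.47, 10.6 and 8.5 against 0.334 to 0.65 (adjusted p = 2.88e-09). Ripk1 and Ripk3, the kinases of necroptosis, rose by 3.76 and 3.04, Casp1 and Pycard, of the inflammasome, by 2.64 and 1.87, and Casp8 by 2.06. Without native DA heart 9 the rise of Ripk1 was 4.49. The 4 falls were in mitochondrial proteins, Endog by 2.40, Aifm1 by 1.40, Bnip3 by 0.98 and Diablo by 0.73. Not all members that act at mitochondria fell. Bak1, Bid, Bad and Mcl1 rose by 1.33, 1.42, 1.05 and 0.74, and Bcl2 did not pass, at -0.73 (adjusted p = 0.284). Fas, a death receptor, did not pass, at mean levels of 0.0637 and 0.0543. Heat shock and unfolded protein genes gave 14 rises, 8 falls and 2 that did not pass among 24 (median 0.51). Hspa1a, inducible HSP70, rose 3.77-fold, from 2.52, 2.53, 2.55 and 2.18 to 7.93, 11.3, 6.92, 9.96 and 10.6 (adjusted p = 6.93e-08), and Pdia4, a chaperone of the endoplasmic reticulum, 3.76-fold. The muscle small heat shock protein Hspb6 fell by 1.64 and the mitochondrial chaperonins Hspd1 and Hspe1 fell by 0.58 and 1.07, and Hspd1 gave -0.15 after quantile normalization, which did not pass (adjusted p = 0.349).

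Arginine, nitric oxide and heme genes gave 11 rises, 2 falls and 8 that did not pass among 21 (median 0.58). Against the rise of Arg1, the inducible nitric oxide synthase Nos2, which uses the same substrate, was at 0.356, 0.392, 0.631, 0.894 and 1.69 in allografts and at 0.294, 1.98, 0.812 and 2.1 in native DA hearts. The groups overlap fully and the difference of -0.58 did not pass (adjusted p = 0.588), nor did the -1.17 without native DA heart 9 (adjusted p = 0.265). Nos3, the endothelial synthase, rose 2.46-fold (adjusted p = 2.57e-05), and Ass1, which regenerates arginine from citrulline, 11.5-fold. Arg2, the mitochondrial arginase, did not pass (0.12, adjusted p = 0.756). Hmox1, heme oxygenase 1, rose 43.8-fold, with 66.8, 62.8, 38.1, 49.8 and 42.6 in allografts against 0.893, 1.53, 0.966 and 1.38 (adjusted p = 8.8e-11), while the constitutive Hmox2 fell by 0.73. Ddah2, which degrades inhibitors of nitric oxide synthase, fell by 2.20.

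Markers of other cell types of the heart were tested as well. Of 9 red cell genes none rose, 5 fell and 4 did not pass (median -0.61), and Hbb, beta globin, was at 103, 170, 88.7, 121 and 150 in allografts against 194, 167, 148 and 264, a fall of 0.61 (adjusted p = 0.0602) that was 0.12 after quantile normalization and then did not pass (adjusted p = 0.569). Hbb also did not pass with an intensity trend (adjusted p = 0.108), or without allografts 3 or 5 (adjusted p = 0.12 and 0.138) or native DA hearts 9 or 13 (adjusted p = 0.107 and 0.195). Its signal was 90.7 to 165 in isografts and 82.5 to 157 in native BN hearts. The mean level over the red cell genes, on the log2 scale, was 1.33 to 1.53 in native DA hearts. It was 0.14 to 0.91 in allografts, 0.58 to 1.02 in isografts and 0.03 to 0.69 in native BN hearts. Lower red cell levels than in native DA hearts were thus not particular to allografts. Of 11 smooth muscle genes 2 rose, 5 fell and 4 did not pass (median -0.50), with Myh11 lower by 1.28 and Acta2 higher by 1.01. Of 8 adipocyte genes 1 rose, 3 fell and 4 did not pass (median -0.42), and the members that fell, Lpl, Fabp4 and Pparg, are also made by heart muscle, capillaries or leukocytes, of which Pparg (-0.53) did not pass with the signals as deposited or without native DA heart 12 (adjusted p = 0.128 and 0.143), while the defining markers Plin1 and Lep did not pass and were at no more than 0.655 and 0.118 array medians in any heart of either group. The adipocyte gene that rose was Cfd, 3.11-fold (adjusted p = 0.000235) and without overlap. Of 12 Schwann cell and nerve genes 1 rose, 4 fell and 7 did not pass (median -0.35). The share that fell, 33.3%, compares with 29.1% of all genes. Of 9 atrial genes 1 rose, 6 fell and 2 did not pass (median -1.26). Nppa was the member that rose, and the atrial light chains Myl7 and Myl4 were at no more than 0.951 and 1.24 in any of the 9 hearts. Of 33 cytosolic ribosomal protein genes 8 rose (24.2%, against 25.2% of all genes), 1 fell and 24 did not pass (median 0.12). After quantile normalization 30 rose (median 0.57) and 15 with the signals as deposited, so the count of this list depends on the scaling. Rpl3 rose 3.76-fold, from 23.0, 20.3, 19.0 and 23.5 to 87.9, 92.8, 62.0, 81.9 and 80.8 (adjusted p = 1.97e-08), far from the other ribosomal genes, the next of which was Rpl18 at 0.61.

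**Figure D4:**
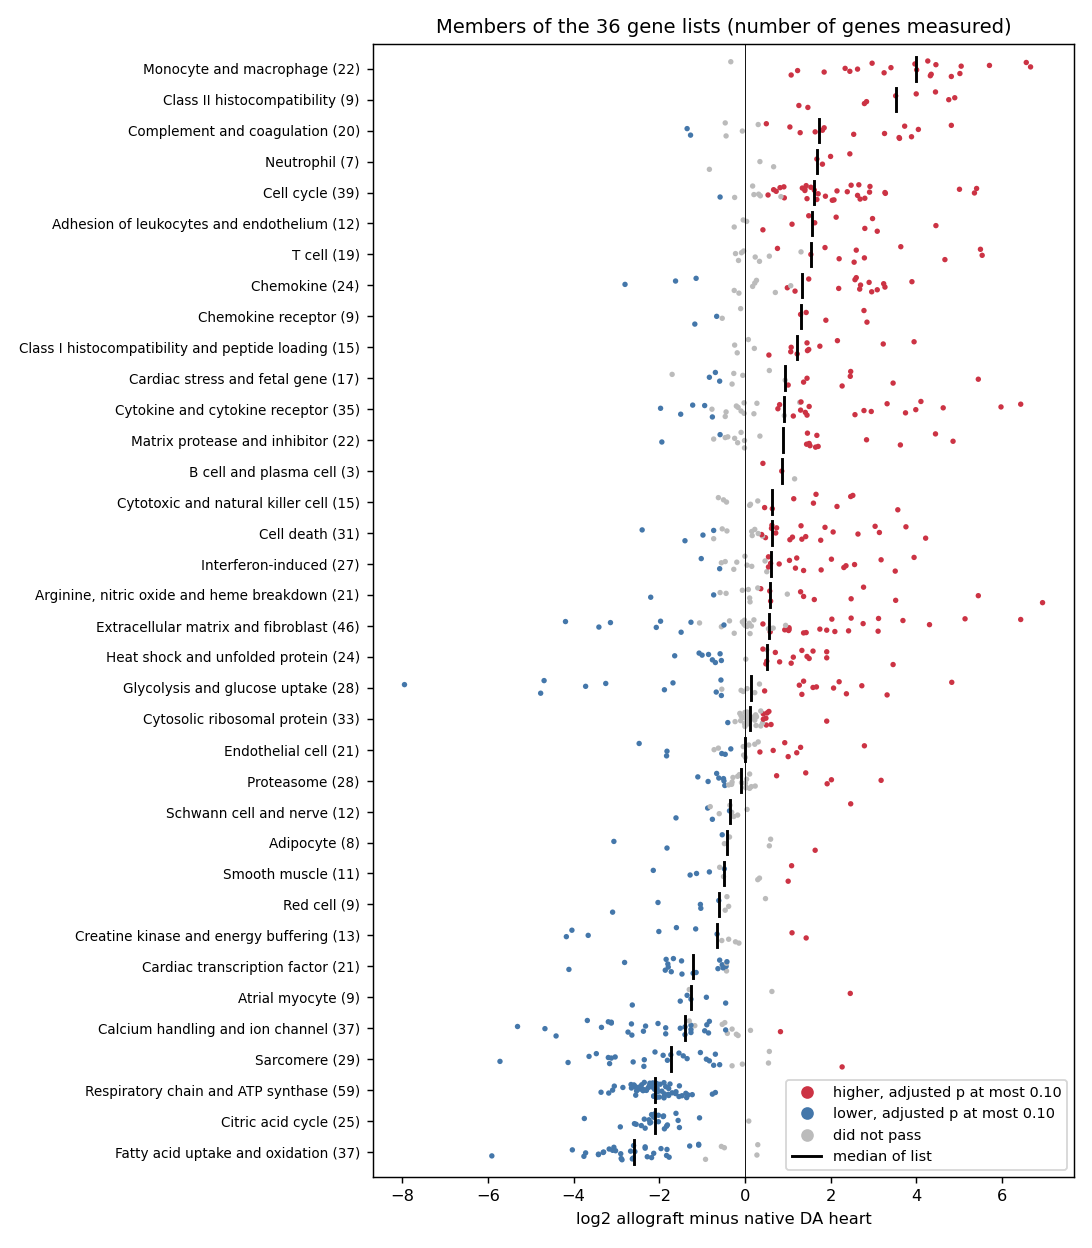
Log2 difference between 5 allografts and 4 native DA hearts for every measured member of 36 gene lists, ordered by the median of the list (black bar), where red points are members higher and blue points members lower at an adjusted p of at most 0.10 and grey points did not pass. Medians run from 3.99 for monocyte and macrophage genes to -2.60 for fatty acid genes, and glycolysis genes spread from -7.95 to 4.83.

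Isografts, in which donor and recipient are of the same strain, were set beside these differences. The values are given side by side, since the isograft comparison uses the same native DA hearts and isografts share recipients with them. A group of genes stood near the native level in isografts. Arg1 differed by 0.52 between isografts and native DA hearts (adjusted p = 0.539) against 6.43 between allografts and isografts (adjusted p = 2.83e-08), Itgam by -0.16 (adjusted p = 0.671) against 4.62, and Slc16a3 by 0.54 (adjusted p = 0.327) against 4.28. For these 3 genes the isograft difference did not pass. Another set was higher in isografts than in native DA hearts, without a difference between isografts and allografts that passed. Nppa was at 79.5, 65.5, 38.3 and 48.8 in isografts, 2.08 above native DA hearts (adjusted p = 0.0037) and 0.38 below allografts, a difference that did not pass (adjusted p = 0.442). Acta1 was 2.81 higher in isografts than in native DA hearts (adjusted p = 5.93e-05), and Col1a1 3.60 higher (adjusted p = 0.00111), with isograft signals of 24.0 to 50.2. The allografts differed from the isografts by -0.54 for Acta1 (adjusted p = 0.132) and by -0.50 for Col1a1 (adjusted p = 0.471), and neither passed. With so few hearts this does not show that the levels are the same.

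A further set was highest in isografts. Col3a1 was at 65.5, 74.9, 68.2 and 64.2 in isografts, 2.41 above native DA hearts (adjusted p = 0.00409), and allografts were 1.39 lower than isografts (adjusted p = 0.0141). Myh7 was at 143, 95.9, 96.4 and 152 in isografts, above every native DA heart and every allograft, and was 0.92 higher than in native DA hearts (adjusted p = 0.0908) and 1.75 lower in allografts than in isografts (adjusted p = 0.000228). By list, 31 of 46 matrix genes were higher and none lower in isografts than in native DA hearts, whereas 6 were higher and 27 lower in allografts than in isografts. Of the macrophage and class II genes, 14 of 22 and 6 of 9 were higher in isografts than in native DA hearts. Of the 59 respiratory chain genes 22 were lower in isografts than in native DA hearts (median -0.60) and 58 were lower in allografts than in isografts (median -1.53). Over all genes, 7.58% were higher and 7% lower in isografts than in native DA hearts, and 22.5% and 23.2% in allografts than in isografts.

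Genes that differ between native BN and native DA hearts bear on allografts, which hold DA tissue and BN cells. The native BN hearts came from rejecting hosts, so strain and rejection in the host cannot be told apart in these differences. The following were chosen after their values were seen. Echdc2, a mitochondrial protein, was at 4.88 to 6.33 in native DA hearts and 0.0314 to 0.0519 in native BN hearts. Allografts had 0.72, 0.798, 0.605, 0.25 and 0.809, above every native BN heart and below every native DA heart. RT1-A, a class I gene, was at 0.448 to 1.23 in native DA hearts, at 0.192 to 0.297 in native BN hearts, and at 1.97 to 5.41 in allografts. Lad1, a filament-anchoring protein, was at 0.0568 to 0.0986 in allografts, which overlaps the 0.0904 to 0.169 of native BN hearts and lies below the 1.18 to 2.2 of native DA hearts.

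The mean level over the sarcomere genes, on the log2 scale, was 3.32, 3.85, 2.74, 2.64 and 3.66 in allografts 3 to 7, against 4.87 to 5.10 in native DA hearts. Allografts 4 and 7 had the highest and allografts 5 and 6 the lowest means among the allografts, and the respiratory chain genes had the same order of these pairs, with 4.17 and 4.03 against 3.40 and 3.59. Matrix genes ran the other way for allografts 5 and 7, with means of 2.13, 1.43, 3.03, 2.05 and 1.10, so that allograft 4 lay within and allograft 7 just below the range of the native DA hearts (1.12 to 1.49). T cell genes were highest in allograft 3, at 1.01, and lowest in allograft 5, at 0.56. Class II genes had the same extremes, at 5.46 and 4.72. Neutrophil genes were lowest in allograft 3, at -0.39, and highest in allograft 5, at 0.81. Every allograft lay above every native DA heart for the T cell, macrophage, class II, neutrophil and cell cycle means, and below every native DA heart for the sarcomere and respiratory chain means. Each heart was measured once, so spread between animals and between arrays cannot be told apart.

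**Figure D5:**
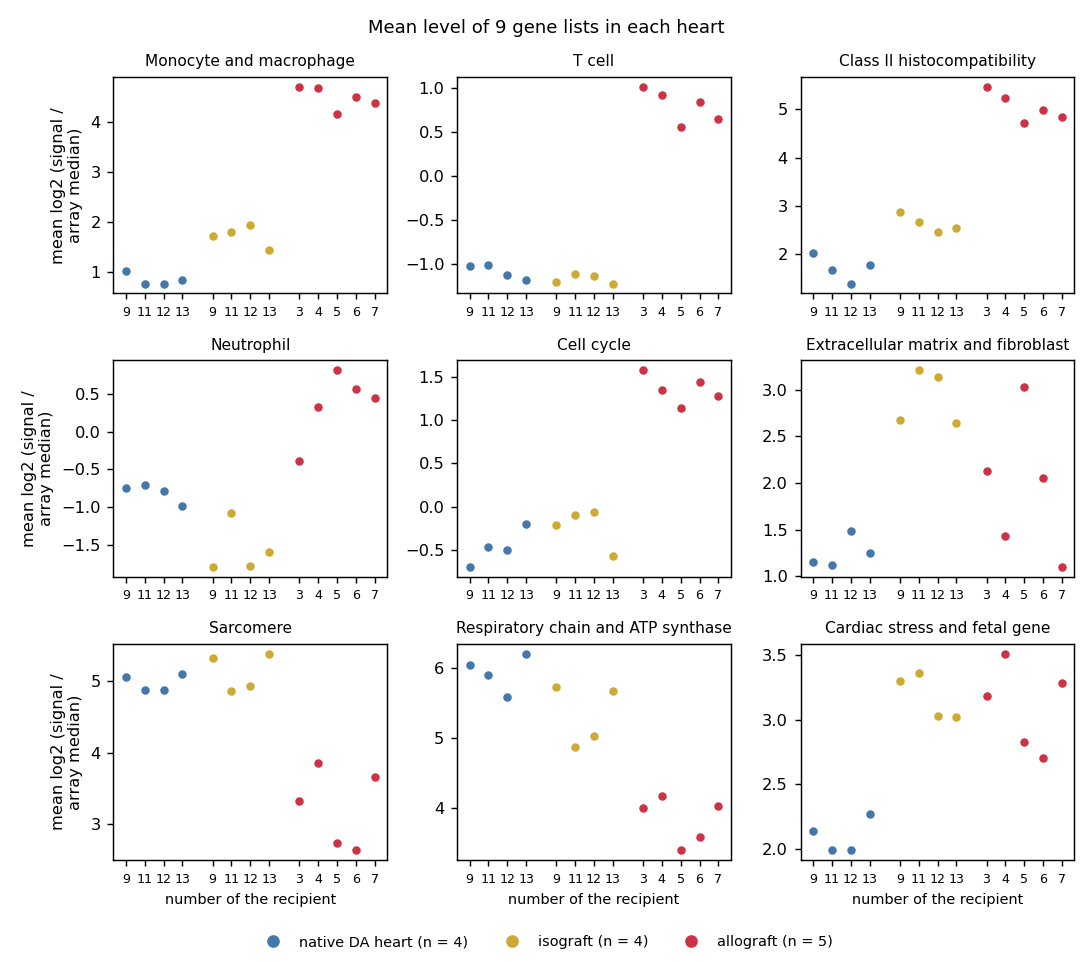
Mean log2 signal over array median of the genes of 9 lists in each native DA heart (blue), isograft (yellow) and allograft (red), with the number of the recipient on the x axis. Macrophage, T cell, class II and cell cycle means of all 5 allografts lie above those of the native DA hearts, sarcomere and respiratory chain means below, and matrix means of the allografts spread from 1.10 to 3.03.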

How the data were processed

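Total RNA of rat hearts was hybridised to RAE230A arrays, 1 array per heart. The deposited values are, per the labels, MAS5 signal intensities, here on a linear scale. The values show that the authors had set the trimmed mean of every array, with 2% of probesets dropped at either end, to about 100. The software version is not given in the sources used here. From these values, each array was divided by its median and log2 transformed. After 57 control probesets were left out, 15866 were analysed, of which 12783 have 1 gene symbol, 312 several and 2771 none, and 12748 were matched to the GRCr8 annotation. No 2 arrays held identical values. A linear model with the means of 4 heart groups was fitted in limma 3.58.1 (R 4.3.3), after tests on simulated data, with Benjamini-Hochberg adjustment over all probesets. The number of arrays limits the precision, and no detection calls were used, so a signal far below the array median may be background.

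Named genes were the 8 called probesets with 1 symbol with the largest rises and the 8 with the largest falls among those without overlap, up to 3 members of each gene list with the largest change, and a fixed set of genes reported whatever their values where a probeset was matched to them by symbol. Other list members are named to show the extent of a group. Members, lists and fixed genes were chosen with earlier results of these data known. Alternatives were the deposited scaling, quantile normalization, 0.25 array medians added before log2, other signal criteria, the probeset with the largest interquartile range, a fit of only both groups, an intensity trend, the recipient as a block, and leaving out each heart in turn. Groups were taken from the sample labels, and 20 blood cell samples on another array type were not used here. The labels do not say how the animals were batched, and p-values measure the spread between hearts.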

Additional observations from a re-analysis of the deposited data

Results flagged for a closer look

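Samples standing apart from the rest of their group were looked for in 272 groups, the allografts and the native DA hearts of each named gene, and 17 were found by Dixon's criterion, which chance alone meets in about 1 in 20 groups. Signals are in array medians.

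Allograft 3 stood apart for 3 genes. Cxcl13 was 18.4 there against 5.54 to 7.18 in the other allografts, S100a9 was 4.0 against 14 to 22.7, and Fn1 was 40.3 against 43.0 to 44.1. Allograft 5 was lowest for Spp1, at 64.2 against 106 to 118, and for Bcl2a1, at 4.47 against 8.5 to 10.6. Allograft 6 was lowest for Pdia4, at 6.73 against 8.18 to 8.6, and for Smtn, at 1.1 against 1.31 to 1.36. Allograft 4 was lowest for S100b, at 0.19 against 0.583 to 0.724.

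Among native DA hearts, heart 9 was lowest for Cd44, at 0.325 against 0.871 to 1.01, and for Slc16a3, at 0.242 against 0.561 to 0.606, and highest for Adamts9, at 0.357 against 0.119 to 0.138. Heart 12 was highest for Fn1, at 3.65 against 1.77 to 1.89, and for Slc2a1, at 2.47 against 2.02 to 2.04, and lowest for Cmbl, at 17.6 against 20.5 to 21, and for Cd68, at 0.923 against 1.2 to 1.26. Heart 11 was highest for Il6, at 0.068 against 0.0464 to 0.0472, and heart 13 was lowest for Hspa1a, at 2.18 against 2.52 to 2.55. In none of these 17 cases did the sample lie within the range of the other group.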

How the results depend on the processing

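The counts of probesets called stayed within 1.5 times, at 738 to 1191 higher and 787 to 1349 lower over the processing alternatives, and at 938 to 1014 and 958 to 1030 when 1 heart was left out. No paired analysis was possible because the groups compared share no recipient. With the recipient as a random block over all 18 hearts (replicate block, consensus correlation 0.0573) the counts were 955 and 989. Of 136 named genes, 122 kept direction and side of the threshold under 15 alternatives. Under at least 1 alternative, 9 no longer passed: Col3a1, Hbb, Hk2, Myh7, Psmb7, Tnni1 and Xbp1, as given with their values, Rps9 (0.56, and 0.39 to 0.57 at adjusted p of 0.128 to 0.257 with only both groups in the fit or without allografts 3, 4 or 6 or native DA hearts 9 or 12) and S100b (-0.87, adjusted p = 0.103 with only both groups in the fit, and -0.75, adjusted p = 0.106, with the signals as deposited). Of 549 list members past the test, 483 passed under every alternative of the fit and scaling and with each heart left out. The fall lost among chemokine receptors was that of Ccr4, and the rise lost among calcium handling genes that of Fkbp1b. Differences near 0 changed sign in 5 genes: with the signals as deposited Nppb gave 0.07, Hk1 0.08, Ldha 0.02 and Pecam1 0.08, and after quantile normalization Nppb gave 0.38 and Ldha 0.33. On leaving out 1 heart Nppb ranged from -0.34 to 0.28, Hk1 from -0.17 to 0.14, Ldha from -0.22 to 0.03, Arg2 from -0.06 to 0.26 and Pecam1 from -0.15 to 0.04. Of 72 list counts, 55 stayed within 1.5 times. With the signals as deposited the counts were 1 chemokine receptor, 1 matrix protease and 1 Schwann cell gene lower, 3 sarcomere, 1 fatty acid and 15 ribosomal genes higher, and 0 ribosomal genes lower. After quantile normalization they were 1 chemokine receptor, 3 proteasome, 1 cardiac stress and 0 ribosomal genes lower, and 8 proteasome, 3 sarcomere, 1 fatty acid and 30 ribosomal genes higher. With an intensity trend they were 1 chemokine receptor lower, 2 sarcomere, 0 calcium handling and 1 fatty acid genes higher. With 0.25 array medians added, 0 calcium handling genes were higher, and with only both groups in the fit 1 neutrophil gene and 0 ribosomal genes were lower. By the probeset with the largest interquartile range, 4 complement and 1 cardiac stress genes were lower and 2 sarcomere and 2 Schwann cell genes higher. Without allograft 3 the counts that moved were 1 chemokine receptor and 2 Schwann cell genes lower and 5 ribosomal genes higher. Without allograft 4 they were 1 chemokine receptor and 0 ribosomal genes lower, and 0 calcium handling, 2 adipocyte, 2 atrial and 5 ribosomal genes higher. Without allograft 5 they were 3 and without allograft 6 they were 2 sarcomere genes higher, and without allograft 7 there was 1 fatty acid gene higher. Without native DA heart 12 they were 1 T cell and 2 ribosomal genes lower, and 3 sarcomere, 1 fatty acid, 2 adipocyte and 2 ribosomal genes higher. Without native DA heart 9 they were 1 chemokine receptor and 1 matrix protease gene lower, and without native DA heart 13 there was 1 chemokine receptor lower, while calcium handling genes higher fell to 0 without native DA hearts 9, 11 or 13. Ribosomal genes higher ranged from 2 to 9 over all hearts left out, and ribosomal genes lower were 0 without allografts 5 or 7 or native DA hearts 9, 11 or 13. The cause was not tested. With 0.25 array medians added, 44 named genes moved by over 1.5 times, as their signals in the lower group lie far below the array median.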
